A study of Mus musculus with 14 samples.

Results

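Of the 14 arrays of this mouse series, 4 had a clear signal for Fabp6, the ileal bile acid binding protein, and 10 did not. These 4, which held WT replicates 1 and 6 together with K289R replicates 2 and 7, were chosen by a Fabp6 value above 8 on the log2 scale and were compared with the other 10 across all genes, with genotype as a covariate. Each array held the jejunal RNA of 1 mouse. There were 7 mice with the genotype LRH-1 WT and 7 with LRH-1 K289R; LRH-1 is the nuclear receptor encoded by Nr5a2, and K289R exchanges a lysine of it for an arginine. The mice were 19 to 21 weeks old, had free access to food, were kept 5 to a cage and were killed at 7 am, per the labels. No group received a treatment, and the labels give neither the sex of the mice nor the point along the jejunum at which the tissue was cut. Both sides of the split held both genotypes, with 2 of 7 WT and 2 of 7 K289R arrays on the Fabp6 side.

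The small intestine changes along its length. Enterocytes of the upper part are specialised in the uptake of fat, iron, folate and sugar and carry the liver-type fatty acid binding protein Fabp1, while those of the ileum recover bile acids: Slc10a2 takes them up from the lumen, Fabp6 binds them in the cytosol, Slc51a with its partner Slc51b exports them into the blood, and the receptor Nr1h4 (FXR) responds to them by inducing the hormone Fgf15. The factor Gata4, present in the upper intestine and low in the ileum, is known to hold this ileal programme down in the jejunum. LRH-1 belongs to the receptors that act on bile acid and cholesterol genes.

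The split was made from measured values, so Fabp6 is given as a description with no test. Its log2 level was 12.52 on WT replicate 1, 10.71 on K289R replicate 2, 9.91 on K289R replicate 7 and 9.18 on WT replicate 6, and these arrays are listed in that order below. On the other 10 it lay between 6.09 and 6.63, close to the dim limit of 6.25 below which a gene's mean was left out of testing. In linear units the 4 intensities were 5869, 1680, 962 and 579, against 68.0 to 99.4. No array lay between 6.63 and 9.18, so any limit in that gap would have made the same split. The 4 arrays were not alike: WT replicate 1 exceeded WT replicate 6 by more than the latter exceeded every array without the signal. A gene that follows Fabp6 over the same arrays is not independent evidence of where the tissue came from, and the p-values below say only how a gene went with Fabp6 over these 14 arrays.

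The 4 stretches of 250 bases printed here lie just upstream of RefSeq gene starts (mouse build GRCm38.p6) and are shown because these genes carry the bile acid and fat side of the comparison. They are written 5′ to 3′ on the gene's strand and end at the base before the start. Capitals mark matches, on either strand, to the LRH-1 half-site CAAGGNCA, the CDX motif TTTATG or the GATA motif GATAA.
Fabp6, chr11:43601563-43601812, minus strand: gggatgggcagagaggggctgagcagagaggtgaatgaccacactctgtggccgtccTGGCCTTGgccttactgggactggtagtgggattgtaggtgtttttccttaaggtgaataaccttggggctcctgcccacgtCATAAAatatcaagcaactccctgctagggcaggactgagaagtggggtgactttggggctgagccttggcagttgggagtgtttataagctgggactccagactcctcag
Slc10a2, chr8:5105288-5105537, minus strand: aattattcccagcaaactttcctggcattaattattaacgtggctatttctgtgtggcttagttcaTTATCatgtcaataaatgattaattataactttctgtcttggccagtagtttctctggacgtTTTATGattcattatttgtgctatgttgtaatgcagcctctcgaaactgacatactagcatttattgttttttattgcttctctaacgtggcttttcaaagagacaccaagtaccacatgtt
Slc51a, chr16:32487880-32488129, minus strand: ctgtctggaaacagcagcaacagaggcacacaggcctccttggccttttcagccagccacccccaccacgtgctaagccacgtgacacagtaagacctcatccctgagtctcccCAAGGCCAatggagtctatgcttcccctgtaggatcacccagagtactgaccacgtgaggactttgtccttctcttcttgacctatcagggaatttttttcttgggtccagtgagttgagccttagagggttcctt
Fabp1, chr6:71199629-71199878, plus strand: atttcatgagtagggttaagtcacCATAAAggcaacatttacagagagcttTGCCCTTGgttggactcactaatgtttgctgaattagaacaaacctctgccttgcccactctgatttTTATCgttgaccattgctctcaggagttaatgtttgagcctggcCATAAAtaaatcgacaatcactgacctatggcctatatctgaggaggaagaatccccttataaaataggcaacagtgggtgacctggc
The Fabp6 stretch had an LRH-1 half-site match 193 to 186 bases before the start and a CDX match 111 to 106 bases before it. In the Slc10a2 stretch there was a GATA match at 184 to 180 and a CDX match at 122 to 117 bases before the start. Slc51a had a half-site match at 136 to 129 bases. The Fabp1 stretch held all 3 motifs, with a half-site match at 199 to 192, CDX matches at 226 to 221 and 88 to 83, and a GATA match at 132 to 128 bases. Such letters are common: of 32851 RefSeq promoter stretches of this length, 5.53% held the half-site, 10.76% the CDX motif and 22.58% the GATA motif. A match describes the sequence and is no evidence that a factor binds there.

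Beyond Fabp6, 57 of 18009 genes tested (0.317%) passed an adjusted p of 0.05 between the 4 arrays and the other 10 (limma, Benjamini-Hochberg over all genes). Of these, 15 (0.0833%) were higher and 42 (0.233%) lower on the Fabp6 side, and the lowest adjusted p was 0.0111. An unadjusted p under 0.05 was reached by 1908 genes (10.6%). After quantile normalization of the arrays 37 genes passed, 18 higher and 19 lower, so the predominance of lower genes depended on the scaling. In 12 of the 15 higher and 29 of the 42 lower genes the 4 arrays and the other 10 did not overlap; among all genes tested this held for 51 (0.283%) in the higher and 122 (0.677%) in the lower direction, 173 (0.961%) in all. All differences are the Fabp6 side minus the other arrays, on the log2 scale and adjusted for genotype, with limma's standard error.

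Single arrays weighed heavily on that count. WT replicate 1, the array with the most Fabp6, was the highest of all 14 for 12 of the 15 higher genes and the lowest for 20 of the 42 lower ones, whereas it was the highest for 7.81% and the lowest for 7.92% of all genes tested. Without it 5 genes passed: Slc13a1, Slc10a2 and A330048O09Rik higher, Pfkfb3 and Casp6 lower. Without K289R replicate 2 the 4 genes Pfkfb3, Rec8, Prkg2 and Dao passed, all lower. The count was 14 without WT replicate 4 or without K289R replicate 1, 15 without WT replicate 3, 18 without K289R replicate 5 or 7, 24 without WT replicate 2 and 90 without K289R replicate 4. All 57 genes kept their direction and an unadjusted p under 0.05 in each of the 14 fits without 1 array, although they had been picked from the fit to all arrays.

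**Figure D1:**
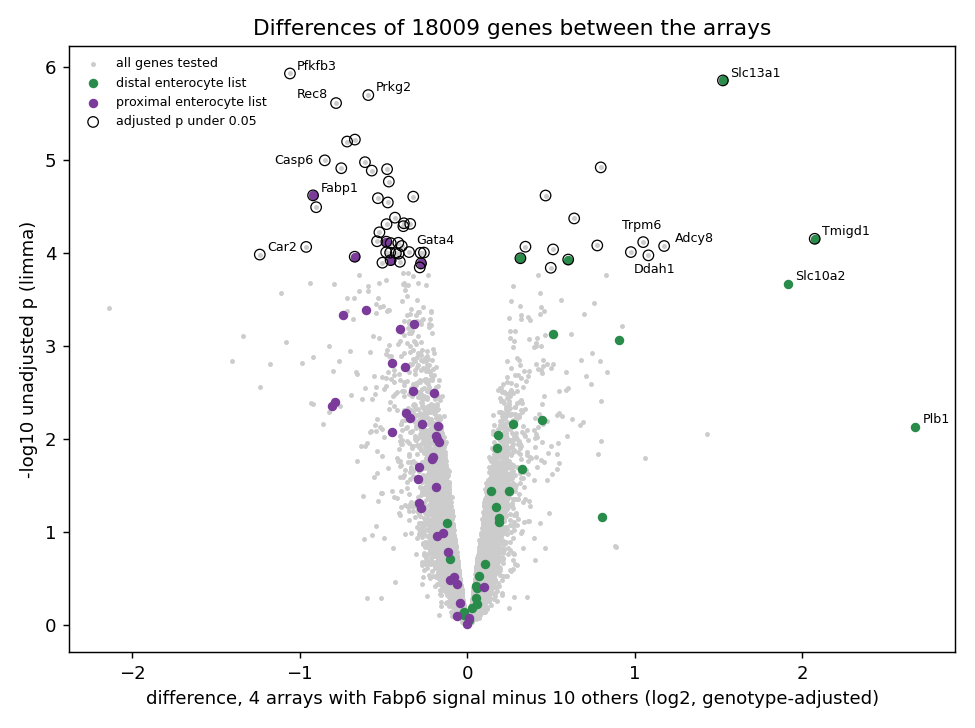
Each point is 1 of 18009 genes, with the log2 difference between the 4 arrays with Fabp6 signal and the 10 others on the x axis and −log10 of the unadjusted limma p on the y axis; rings mark the 57 genes past the adjusted threshold. Distal enterocyte genes (green) lie mostly to the right, with Tmigd1 at 2.07 and Slc13a1 at 1.53, and proximal ones (purple) to the left, with Fabp1 at -0.92.

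Among the genes of bile acid recovery, the exporter subunit Slc51a rose and the uptake carrier Slc10a2 stood higher on all 4 arrays without passing the test. Slc10a2 had log2 levels of 10.52, 8.03, 7.12 and 7.20, against a lowest of 6.14, a median of 6.25 and a highest of 6.60 on the other arrays. The groups did not overlap, WT replicate 1 stood far above the other 3, and the 10 remaining arrays were near the dim limit, where any background left in the values would compress a difference. The difference was 1.92 (SE 0.40, adjusted p = 0.0539 by limma), and it was 1.12 with an adjusted p of 0.0152 when WT replicate 1 was left out. Slc51a, which was bright on all 14 arrays, ran at 12.29, 11.83, 11.60 and 11.51 against 10.74 to 11.38 (median 11.27), with no overlap and the arrays in the same order as for Fabp6. Its difference was 0.60 (SE 0.12, adjusted p = 0.0417 by limma), and its call held in 2 of the 14 fits without 1 array.

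Fgf15, the hormone through which the ileum signals to the liver, did not follow Fabp6. Its log2 levels were 7.31, 10.56, 10.52 and 8.35 against 7.19 to 9.90 (median 8.42). The 2 K289R arrays with Fabp6 signal were the highest of all 14, while WT replicate 1, highest in Fabp6 and Slc10a2, was lower in Fgf15 than all but WT replicates 2 and 3. The difference was 0.80 (SE 0.41, adjusted p = 0.514 by limma), with 0.05 among WT and 1.55 among K289R arrays, and a second, dimmer probe set of the gene gave 0.27. The test of that genotype difference did not pass the adjusted threshold for any gene, Fgf15 included. Nr1h4, the bile acid receptor that induces Fgf15, differed by 0.25 (SE 0.094, adjusted p = 0.340 by limma), with 9.51, 9.25, 9.12 and 9.15 against 8.72 to 9.22. Of the 12 tested genes of the bile acid list 6 were higher and 6 lower, where 49.6% of all genes were higher. Slc51a was the only 1 to pass, where 0.0833% of all genes were called higher. The median difference was 0.03, against -0.00097 over all genes.

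**Figure D2:**
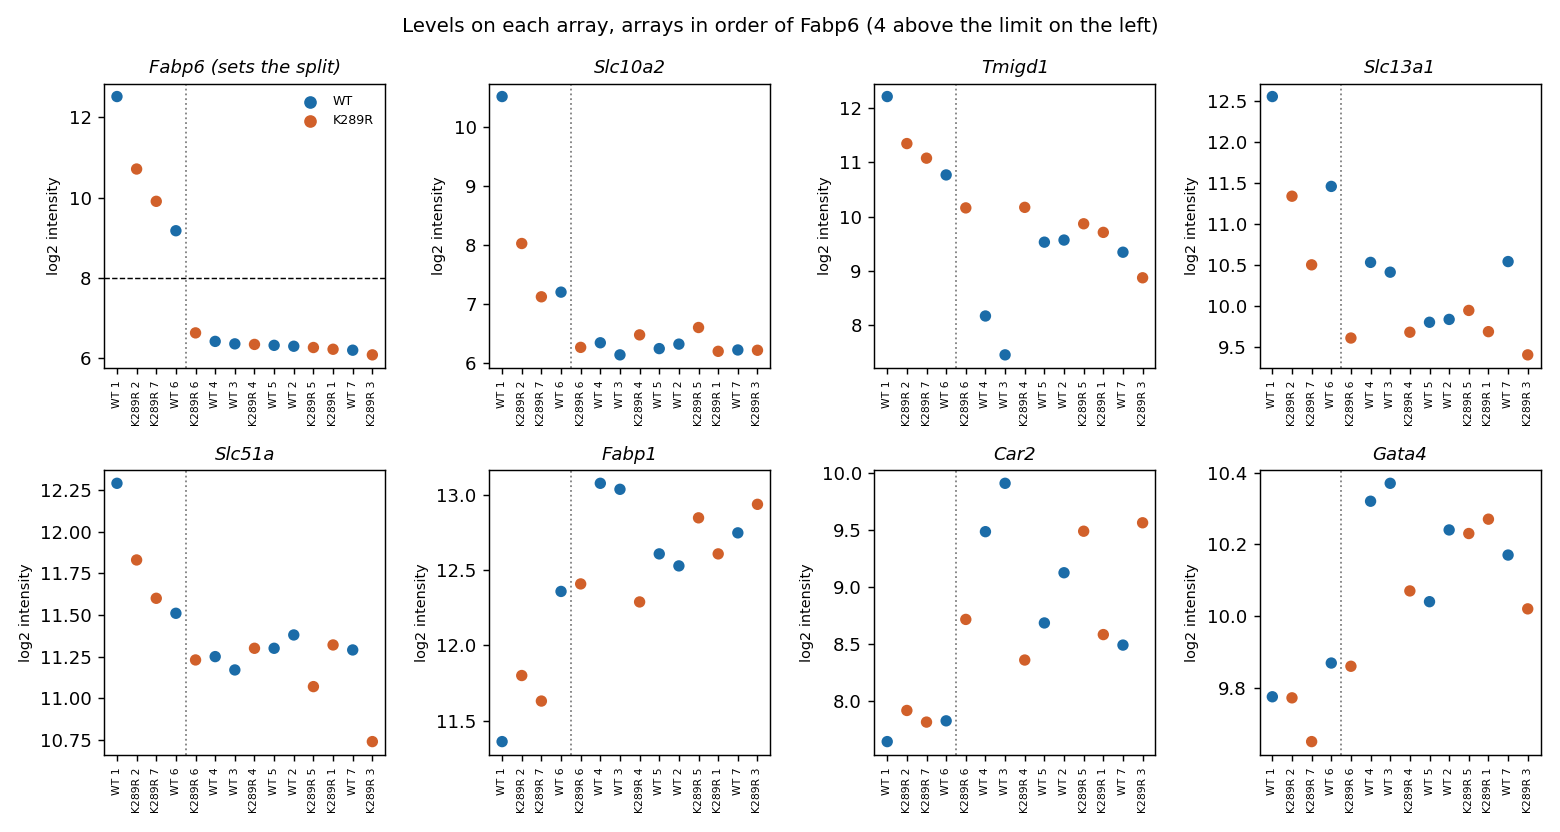
Log2 intensity of 8 genes on each of the 14 arrays, with arrays on the x axis in falling order of Fabp6, the 4 with Fabp6 signal left of the dotted line, WT in blue and K289R in orange. Slc10a2, Tmigd1 and Slc51a are higher on all 4 than on all others, Car2 is lower on all 4, and Slc13a1, Fabp1 and Gata4 overlap.

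Other genes of distal enterocytes rose with Fabp6. Tmigd1, an adhesion protein of intestinal and kidney epithelium, had levels of 12.22, 11.35, 11.08 and 10.77 against 7.44 to 10.17 (median 9.55), with no overlap and a wide spread among the 10. It was 4.21-fold higher, a difference of 2.07 (SE 0.39, adjusted p = 0.0402 by limma). Its call did not hold without WT replicate 1 or without K289R replicate 2. Slc13a1, the sodium-sulfate cotransporter of kidney and gut, was at 12.56, 11.34, 10.50 and 11.46 against 9.40 to 10.54 (median 9.82), so that K289R replicate 7 alone fell within the range of the others. The difference of 1.53 (SE 0.21) had the joint lowest adjusted p of all genes, 0.0111 by limma, and passed in 13 of the 14 fits without 1 array. Nudt4, which removes phosphate from diphosphoinositol polyphosphates, differed by 0.32 (SE 0.063, adjusted p = 0.0414 by limma).

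With Slc51a these made 4 of 32 tested members of the distal enterocyte list that passed, all higher, where 0.0833% of all genes did. By sign, 27 members were higher and 5 lower, against 49.6% higher among all genes, and the median difference was 0.18 (0.14 to 0.20 over the fits without 1 array). The list mean was 11.71 to 12.05 on the 4 arrays and 11.08 to 11.57 on the other 10, without overlap. The list shares Slc10a2, Slc51a and Fgf15 with the bile acid list. Chosen after its values were seen, Plb1, a brush border phospholipase, had the largest difference of the list, 2.67 (SE 0.87, adjusted p = 0.251 by limma), with 13.02, 12.69, 12.72 and 12.61 on the 4 arrays and 7.09 to 12.05 on the others. Mep1a, a brush border metalloprotease also singled out in this way, was at 12.65, 12.33, 12.30 and 12.36 against 10.67 to 12.16, a difference of 0.91 (SE 0.22, adjusted p = 0.0985 by limma). Neither gene overlapped between the groups.

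Proximal enterocyte genes went the other way. Fabp1, which carries long-chain fatty acids in enterocytes and hepatocytes, was at 11.36, 11.80, 11.63 and 12.36 against 12.29 to 13.08 (median 12.68). WT replicate 6, with the least Fabp6 of the 4, was the one that reached into the range of the others. Fabp1 fell to 0.528 of its level elsewhere, a difference of -0.92 (SE 0.16, adjusted p = 0.0275 by limma), and its call held in 7 of the 14 fits without 1 array. Of the 41 tested members of the proximal list 39 were lower and 2 higher, where 49.6% of all genes were higher. Of these, 5 passed, all lower, against 0.233% of all genes, and the median was -0.28 (-0.30 to -0.22 over the fits without 1 array). Besides Fabp1 these were the alcohol dehydrogenase Adh6a at -0.67, brain-type creatine kinase Ckb at -0.48, the dehydrogenase Dhrs1 at -0.46 and mitochondrial creatine kinase Ckmt1 at -0.28. The list mean ran from 11.20 to 11.43 on the 4 arrays and from 11.41 to 11.79 on the others, so the groups overlapped at the edge. In bulk tissue fewer cells of a type and less RNA per cell cannot be told apart.

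**Figure D3:**
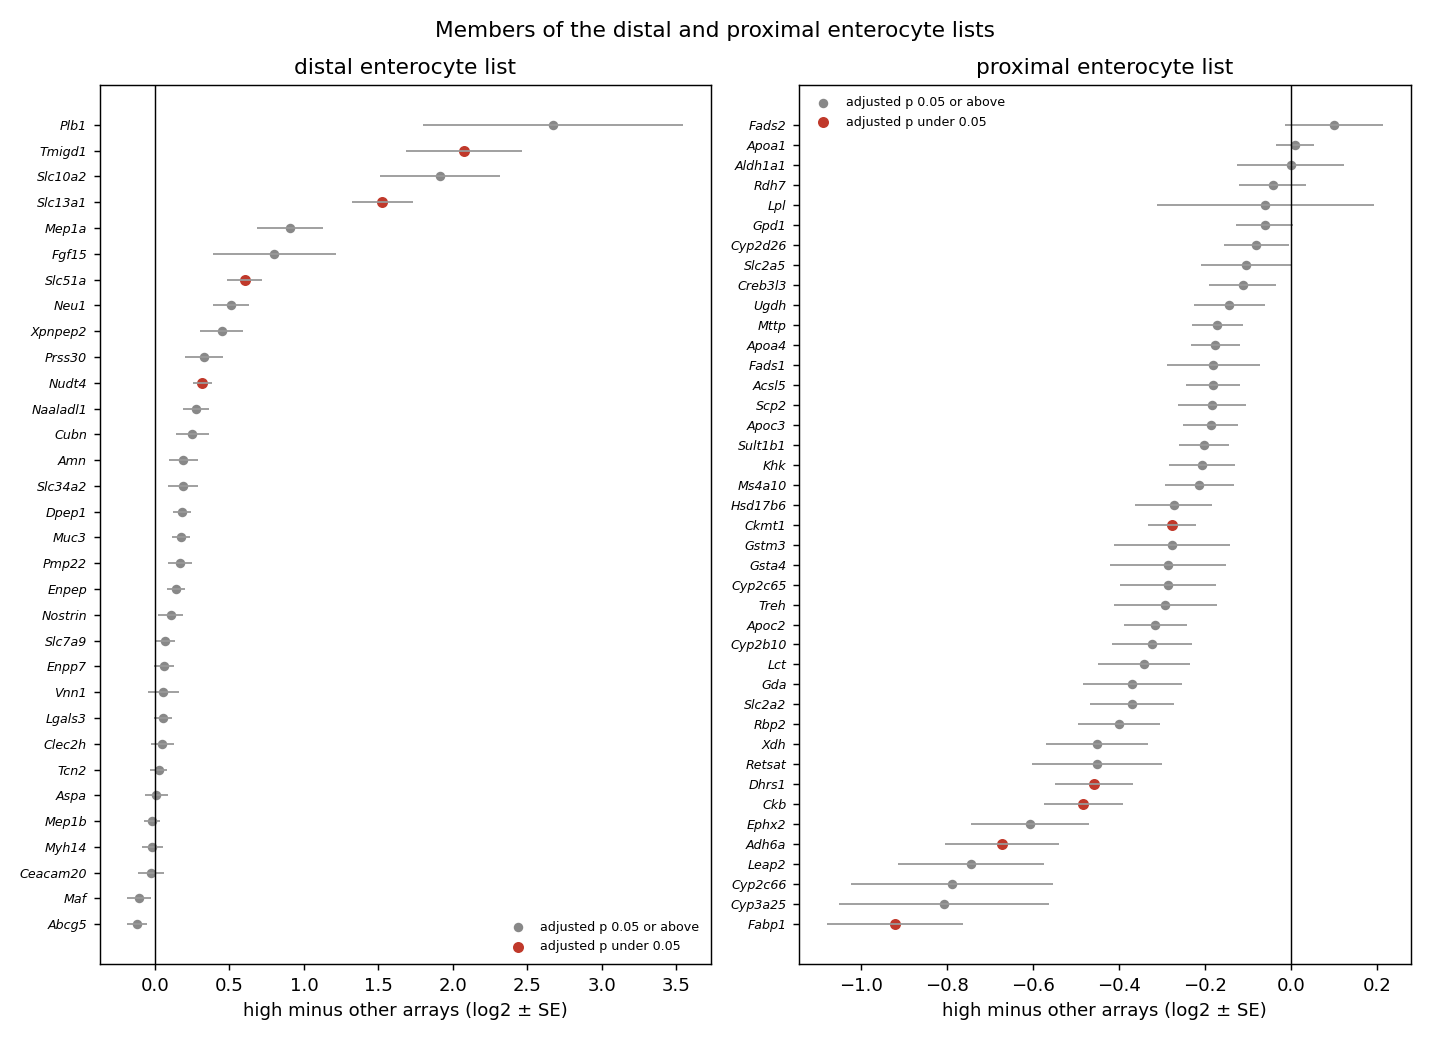
Genotype-adjusted log2 differences (points) with limma's standard error (bars) for the 32 tested distal (left) and 41 tested proximal (right) enterocyte genes, red where the adjusted p was under 0.05. Distal members run from -0.12 to 2.67 with 27 above 0, and proximal ones from -0.92 to 0.10 with 39 below 0.

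Among 11 tested fatty acid and retinoid binding protein genes, 5 were higher and 6 lower. Fabp1 was the only 1 to pass, where 0.233% of all genes were called lower. Fabp2, the intestinal-type protein, was bright on every array and varied little, 13.58 to 13.66 on the 4 and 13.46 to 13.65 on the others, with a difference of 0.05 (SE 0.045, adjusted p = 0.785 by limma). Rbp2, which binds retinol in enterocytes, differed by -0.40 (SE 0.095, adjusted p = 0.0864 by limma), and its second probe set by -0.50.

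Among the factors that set position along the gut, Gata4 and its cofactor Zfpm1 (FOG-1) fell. Gata4 was at 9.78, 9.77, 9.65 and 9.87 against 9.86 to 10.37 (median 10.20), all but separate. The difference was small, -0.39 (SE 0.075, adjusted p = 0.0402 by limma). Zfpm1 differed by -0.46 (SE 0.087, adjusted p = 0.0402 by limma). These were 2 of 16 tested positional factors, where 0.233% of all genes were called lower. Onecut2, a homeobox factor of the upper intestine, had a larger difference with more spread, at 7.43, 7.34, 7.55 and 7.80 against 7.66 to 9.50 (median 8.55), which gave -1.11 (SE 0.24, adjusted p = 0.0595 by limma). Of the 16 tested positional factors 8 were higher and 8 lower, and the other 14 did not pass: Gata5 differed by 0.03, Gata6 by -0.20, Cdx1 by 0.13, Cdx2 by 0.14, Hnf4a by 0.08, Hnf4g by -0.12, Satb1 by -0.01, Osr2 by 0.32, Pdx1 by 0.01, Bcl6 by 0.02, Creb3l3 by -0.11, Maf by -0.11 and Nr5a2 by 0.21. The 30 tested Hox genes, which mark position in the gut wall as well as the lining, had a median of 0.03, 20 higher and 10 lower, with none past the threshold.

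Of the hormone genes ordered along the gut none passed, and the signs were mixed among those of the upper gut. Peptide YY (Pyy) had 9.26, 9.11, 8.64 and 8.58 against 7.52 to 8.55, a difference of 0.74 (SE 0.19, adjusted p = 0.116 by limma). Proglucagon (Gcg) differed by 0.37 (adjusted p = 0.138 by limma) and neurotensin (Nts) by 0.40 (adjusted p = 0.257 by limma). For Pyy and Gcg the 4 arrays lay above the other 10, and for Nts they overlapped. Of the upper gut hormones, Gip differed by -0.49 (SE 0.10, adjusted p = 0.0539 by limma) and ghrelin (Ghrl) by -0.35 (adjusted p = 0.0773 by limma), while cholecystokinin (Cck) differed by -0.27, gastrin (Gast) by -0.03 and secretin (Sct) by 0.07. Gast, Sct, Slc40a1 and Slc5a8, the last of them given further on, were picked after their values were seen. The duodenal list of 13 tested genes had a median of -0.11, with 5 higher, 8 lower and none past the threshold. Its members went both ways: the folate carrier Slc46a1 differed by -0.70 (adjusted p = 0.113 by limma) and the iron exporter Slc40a1 by 0.36 (adjusted p = 0.146 by limma).

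The jejunal label was set against other tissues' markers. Fabp2, the disaccharidase genes Sis and Lct and the apolipoprotein gene Apoa4 were bright on all 14 arrays, with group means of 13.60 for Sis, 12.93 for Lct and 13.81 for Apoa4 on the 4 arrays and of 13.54, 13.27 and 13.99 on the others. Of the colonic markers, the carbonic anhydrase gene Car1 was below the dim limit on every array. Slc26a3 was bright, with group means of 11.66 on the 4 arrays and 11.76 on the others, and Aqp8 had 7.49 and 7.61. The 12 tested colonic genes had a median of 0.05 with none past the threshold. The stomach genes Gkn1 and Atp4b, the pancreatic genes Prss2 and Cpa1 and the liver gene Alb had group means between 6.74 and 7.69, and the pancreatic gene Sycn was brighter, with 8.13 on the 4 arrays and 8.09 on the others. Uty, a Y-linked gene, was at 9.41 to 9.94 on all 14 arrays and Xist at 6.22 to 6.66. Pairwise correlations of the arrays over all 41345 probe sets were 0.9863 to 0.9913 within the 4 and 0.9835 to 0.9926 between the 4 and the 10. The medians were 0.9898 within the 4, 0.9891 within the 10 and 0.9884 between them. Such correlations mostly reflect that probe sets differ in brightness, so they cannot show whether the 4 stood apart as whole profiles.

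The remaining genes past the threshold on the higher side were not members of the distal list. Adcy8, a calcium-stimulated adenylyl cyclase, was at 9.44, 9.10, 8.94 and 9.10 against 7.12 to 8.41, and was 2.26-fold higher (adjusted p = 0.0402 by limma). Trpm6, the channel for magnesium uptake in distal gut and kidney, was at 9.45, 8.40, 7.96 and 8.01 against 6.91 to 7.74, a difference of 1.05 (SE 0.20). Neither gene overlapped between the groups. Ddah1, which degrades the nitric oxide synthase inhibitor dimethylarginine, differed by 1.08 (SE 0.21), with 9.61 to 11.16 on the 4 arrays against 8.67 to 9.33. Hsd11b2, which inactivates corticosterone and so guards the mineralocorticoid receptor, was nearly constant on the 4 arrays, 9.38 to 9.44, and lay above the 8.65 to 9.17 of the others by 0.47 (SE 0.080, adjusted p = 0.0275 by limma). Prss23, a secreted serine protease, differed by 0.80 (SE 0.13, adjusted p = 0.0197 by limma) and by 0.56 on its second probe set. The membrane protein gene Tmem117 differed by 0.98, 2610528A11Rik by 0.78, ccdc198 by 0.64, the sulfurtransferase Mpst by 0.51, the phospholipid scramblase Plscr1 by 0.50 and the progestin receptor Paqr5 by 0.35.

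Besides Slc13a1, the genes with the lowest adjusted p were on the lower side. Pfkfb3, which makes the glycolytic activator fructose-2,6-bisphosphate, was at 8.001, 8.35, 8.27 and 8.76 against 8.98 to 9.84 (median 9.46). It did not overlap, fell by 1.06 (SE 0.14, adjusted p = 0.0111 by limma) and passed in all 14 fits without 1 array. Rec8, a meiotic cohesin subunit, was at 8.15, 8.18, 7.88 and 8.10 against 8.65 to 9.41, a fall of 0.78 (SE 0.11). Prkg2, the cGMP-dependent kinase of the enterocyte brush border, was at 9.31, 9.40, 9.24 and 9.49 against 9.68 to 10.27, a fall of 0.59 (SE 0.082). Rec8 and Prkg2 shared the adjusted p of Pfkfb3, did not overlap and passed in 13 of the 14 fits.

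Car2, a cytosolic carbonic anhydrase, had the largest fall of the called genes. Its levels of 7.64, 7.92, 7.82 and 7.83 were close together and all below the 8.36 to 9.91 of the others, a difference of -1.24 (SE 0.24, adjusted p = 0.0402 by limma). The caspase gene Casp6 was at 10.25, 11.14, 11.37 and 11.12 against 11.62 to 12.12, with a difference of -0.85 (SE 0.14, adjusted p = 0.0197 by limma). Fas, the death receptor, was at 8.51, 8.28, 8.58 and 8.47 against 8.91 to 9.58, with -0.72 (SE 0.11, adjusted p = 0.0192 by limma). Tnfrsf23, another member of the TNF receptor family, differed by -0.90 (SE 0.16, adjusted p = 0.0308 by limma). In none of these 4 genes did the groups overlap.

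Several of the lower genes have metabolic roles. Nr1i3 (CAR), a nuclear receptor for foreign compounds, differed by -0.54 (adjusted p = 0.0402 by limma) and was 1 of 26 tested xenobiotic genes past the threshold, against 0.317% of all genes. Of those 26, 19 were lower and 7 higher, with a median of -0.19 (-0.11 without K289R replicate 7). D-amino acid oxidase Dao differed by -0.53 and the bicarbonate carrier Slc4a5 by -0.75. The proton-coupled amino acid carrier Slc36a1 differed by -0.51. It was the only 1 of 18 amino acid and peptide absorption genes to pass, where 0.233% of all genes were called lower. That list was not lower as a whole, with 11 higher, 7 lower and a median of 0.03, and its glutamate carrier Slc1a1 differed by 0.50 (adjusted p = 0.134 by limma). Likewise Car2 was the only 1 of 16 electrolyte transport genes to pass, where 0.233% of all genes were called lower. Of the 16, 10 were higher, against 49.6% of all genes, with a median of 0.06. In that list Slc9a3, the sodium-hydrogen exchanger of the brush border, differed by -0.72 (adjusted p = 0.0644 by limma) and Slc5a8, a sodium-coupled carrier of short-chain fatty acids, by 0.80 (adjusted p = 0.283 by limma). The other lower genes of the largest 20 were Usp18 at -0.96, Ppm1n at -0.67, Prrx1 at -0.61, Plekhf1 at -0.57, Gdpd2 at -0.52 and Ncoa7 at -0.48. The remaining 22 fell by 0.26 to 0.48. Of 10 sugar digestion and transport genes 7 were lower, with a median of -0.18, and of 16 fatty acid oxidation genes 13 were lower, with a median of -0.21, none past the threshold in either list.

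Markers of T cells and intraepithelial lymphocytes were lower on 3 of the 4 arrays with Fabp6 signal. Of 19 tested T cell genes 18 were lower on the Fabp6 side, none past the adjusted threshold and 13 with an unadjusted p under 0.05, where 10.6% of all genes had one, and the median was -0.58. The largest differences were in the cytotoxic granule gene Gzmb, at 8.03, 7.59, 9.56 and 8.22 against 8.57 to 10.29 (-1.34, SE 0.32, adjusted p = 0.0930 by limma), and the T cell receptor complex gene Cd3g (-1.08, adjusted p = 0.101 by limma). K289R replicate 7 was unlike the other 3: its T cell list mean was 8.69, against 7.87 to 8.03 on the other 3 and 8.13 to 9.08 on the 10. Without K289R replicate 2 the median was -0.37, and without K289R replicate 7 it was -0.70.

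Interferon and antigen presentation genes showed a like pattern. Usp18, a protease that removes the interferon-induced modifier ISG15, was at 8.35, 8.58, 9.54 and 8.53 against 8.97 to 10.45 (adjusted p = 0.0402 by limma), the only 1 of 13 interferon genes to pass, where 0.233% of all genes were called lower. Of the 13, 12 were lower, with a median of -0.22. Of 13 antigen presentation genes 12 were lower, with a median of -0.47, none past the threshold and 8 with an unadjusted p under 0.05. On the interferon list the mean of K289R replicate 7, 8.64, lay within the 8.26 to 8.97 of the 10, and the other 3 lay below it. On the antigen presentation list all 4 lay within the range of the 10, K289R replicate 7 at 10.71 and the other 3 at 9.91 to 10.01. With the T cell list mean as a further covariate, added after the data were seen, 0 genes passed in limma, against 57 without it, and 1004 had an unadjusted p under 0.05. The lowest adjusted p was then 0.699. All 57 kept their direction in that fit, each with an unadjusted p under 0.05, although they had been picked from the fit to the same arrays without it. The median of the distal list was then 0.087, against 0.18 without that covariate, and that of the proximal list -0.22. The part of T cell content in the other differences was not tested beyond this covariate.

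No gene of the secretory and structural cell lists passed the threshold. All 12 tested Paneth cell genes were higher on the Fabp6 side with a median of 0.25, and 14 of 16 goblet cell genes with a median of 0.12. An unadjusted p under 0.05 was reached by 7 of the Paneth and 5 of the goblet genes, where 10.6% of all genes had one. None of the smooth muscle or fibroblast genes reached it. Goblet gene Klk1, a tissue kallikrein, came nearest, at 0.43 (adjusted p = 0.0595 by limma). Of 11 tuft cell genes 9 were lower, with a median of -0.13. Smooth muscle genes were higher in 13 of 14 cases and fibroblast genes in 12 of 13, with medians of 0.06 and 0.09. Without 1 array these ran from 0.04 to 0.12 and from 0.04 to 0.16, both highest without WT replicate 1, and within WT they were 0.02 and 0.0023. B cell and follicle genes of Peyer's patches, which are most frequent in the ileum, had a median of 0.04 over 18 genes, and their list mean of 7.36 to 8.11 lay inside the 7.30 to 8.25 of the other arrays. The sign of that median rested on single arrays, as it was 0.24 without K289R replicate 7 and -0.07 without K289R replicate 2.

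**Figure D4:**
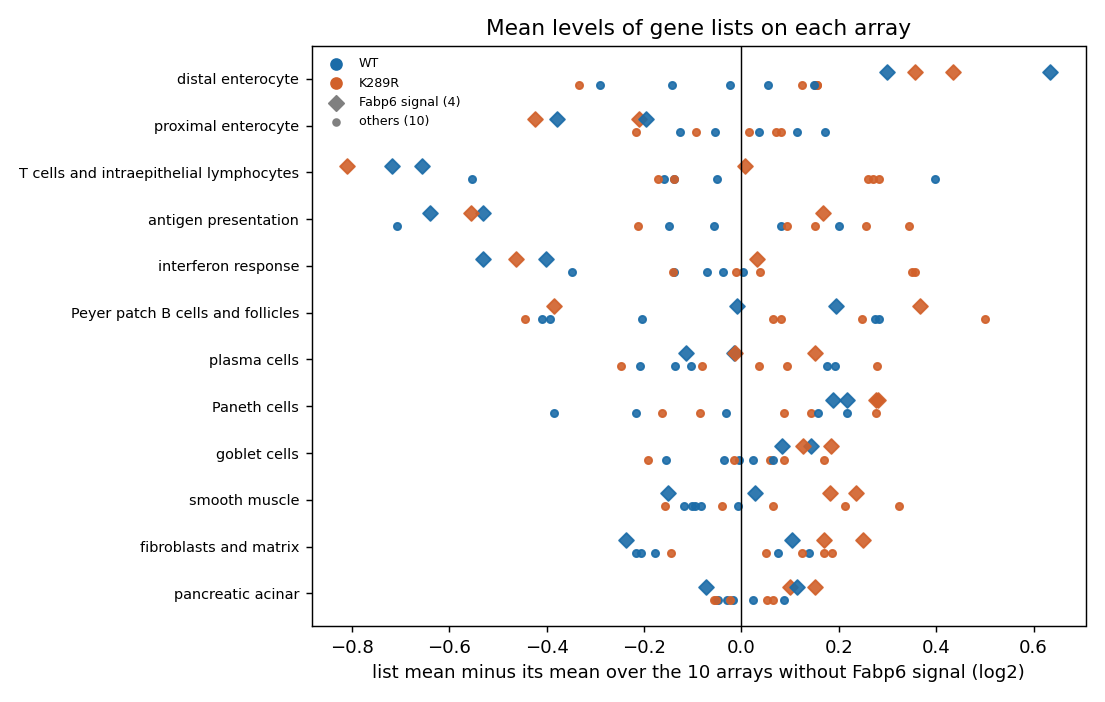
Mean log2 level of the tested genes of 12 lists on each array, relative to the list's mean over the 10 arrays without Fabp6 signal; diamonds are the 4 arrays with Fabp6 signal, dots the others, blue WT and orange K289R. The distal list separates the 4 from the 10, and on the T cell, antigen presentation and interferon lists 3 of the 4 are low while K289R replicate 7 is not.

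The cholesterol synthesis genes rested on 1 array. All 15 tested members were higher on the Fabp6 side, with a median of 0.25 and none past the threshold. Their list mean was 10.67 on WT replicate 1, against 9.54 to 9.97 on the other 3 arrays and 9.60 to 9.97 on the 10. Without WT replicate 1 the median was -0.02. Fdft1, the squalene synthase gene, was at 11.70, 10.78, 10.74 and 10.07 against 9.96 to 10.69 (0.55, SE 0.21, adjusted p = 0.343 by limma).

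No difference between the genotypes in how genes went with the split was detected. All 57 genes had the same sign within WT and within K289R, each with 2 arrays against 5, which the choice of genes from the pooled fit favours. Tmigd1 differed by 2.69 within WT and 1.46 within K289R, Slc13a1 by 1.79 and 1.26, Slc51a by 0.62 and 0.58, Fabp1 by -0.94 and -0.90 and Car2 by -1.40 and -1.07. The test of whether the 2 genotypes differ in the split gave 0 genes past the adjusted threshold (0%) in limma and 672 with an unadjusted p under 0.05 (3.73%). The median standard error of this test was 0.146, against 0.0728 for the split itself, so its power was lower. Without WT replicate 6, which left WT replicate 1 as the lone WT array with Fabp6 signal, 1 gene passed: Slc10a2, with a split difference in K289R minus that in WT of -3.04 (adjusted p = 0.00105 by limma). A lone array is there taken to vary like the others.

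**Figure D5:**
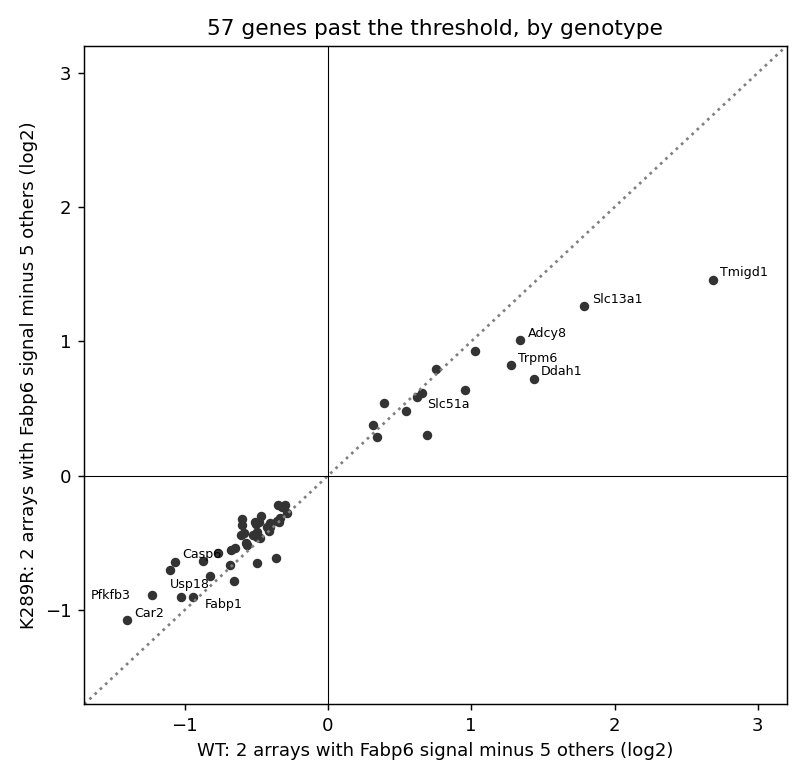
The 57 genes past the threshold, with the log2 difference within WT (2 arrays against 5) on the x axis and within K289R (2 against 5) on the y axis, the dotted line marking equality. All points lie in the lower left or upper right corner of the plot, and Tmigd1 lies farthest below the line at 2.69 and 1.46.

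With the split held fixed as a covariate, the genotypes themselves differed in 10 of 18009 genes (0.0555%), 3 higher and 7 lower in K289R. Car4, a membrane-bound carbonic anhydrase of the brush border, had the lowest adjusted p: it was lower in K289R by a log2 difference of -0.72 (SE 0.078, adjusted p = 0.00141 by limma). Across the split Car4 differed by 0.28 (adjusted p = 0.206 by limma), with 12.31, 11.42, 11.40 and 12.01 on the 4 arrays, the 2 WT values being the higher. The mucin Muc4 (-0.57), the aminopeptidase Rnpep (-0.44), the troponin Tnnt2 (-0.71), the UDP-sugar enzyme Uap1 (-0.42), the peroxisomal oxidase Pipox (-0.42) and 2010010A06Rik (-0.40) were also lower. The PAF1 complex subunit Cdc73 (0.56), the glutaredoxin Glrx2 (0.36) and Insig2 (0.63), which restrains cholesterol synthesis, were higher. Without WT replicate 4 there were 6 such genes, and without K289R replicate 5 there were 18. The calls of Car4, Muc4, Rnpep, Tnnt2, Cdc73 and 2010010A06Rik held in all 14 fits without 1 array. That of Glrx2 held in 7, that of Uap1 in 5, that of Insig2 in 3 and that of Pipox in 2. With the smooth muscle list mean as a further covariate 7 genes passed, of which Car4 and Cdc73 were among the 10. For Fgf15 the genotype difference was 1.64 (SE 0.37, adjusted p = 0.150 by limma), 2.71 among the 4 arrays with Fabp6 signal and 1.22 among the other 10. Nr5a2, which encodes LRH-1, differed across the split by 0.21 (adjusted p = 0.431 by limma).

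Using the Fabp6 level itself in place of the split gave 138 genes past the threshold, 57 higher and 81 lower, and held 53 of the 57 genes of the split. The promoter stretches of the genes past the threshold were searched for the same 3 motifs. Of the 15 higher genes 12 had a stretch in the RefSeq table, with a half-site match in 2, a CDX match in 2 and a GATA match in 5. Of the 42 lower genes 37 had one, with matches in 5, 3 and 8. Among the 13949 tested genes with a stretch the shares were 5.6%, 8.8% and 19.9%. With so few genes these shares are given as a description.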

How the data were processed

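Jejunal RNA of 14 mice was hybridised to 1 array each. The deposited table holds 1 linear intensity per probe set and array (7.40 to 20050.3), made with Affymetrix Expression Console per the submitters' processing notes. The sources used here do not state its version, summarisation or normalization. Array medians of 168 to 174 were taken as 1 common scale, and log2 was taken with no further normalization. The number of arrays limits the precision; the median standard error of a gene's difference was 0.0728.

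The platform annotation paired 23521 of 41345 probe sets with a single gene symbol; those with several symbols (1814) were not used, and 16010 are unnamed here. Each gene took its probe set with the highest mean (22180 genes). A filter at the 25th percentile of probe set means (log2 6.25) removed 4170 dim genes, and Fabp6 was set aside, which left 18009. Arrays were split at a Fabp6 log2 value of 8, and limma 3.58.1 in R 4.3.3 (lmFit, eBayes, 2-sided) was fitted to all 14 arrays with genotype and split as terms; a further fit had their interaction. Adjustment was by Benjamini-Hochberg over all genes tested. The same steps were run on simulated data in which genes varied independently and each gene had a common spread over the arrays. No single array weighed more than others there, so the run checked the steps and not the calls.

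Replicate numbers were checked for pairing: deviations of arrays with the same number correlated at -0.156 to 0.167, and the numbers do not pair the arrays. No 2 arrays were alike enough to be 1 sample (smallest root mean square difference 0.241). The labels name biological replicates, with no cage or scan batch to test.

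The split, the gene lists and the tests were chosen with earlier results of these data known. Named genes are the 20 with the largest difference in each direction past the threshold, up to 4 members with the smallest p of each of 41 lists, all members of the bile acid, distal hormone, sex-linked and fatty acid binding protein lists and the positional factors, up to 5 genes with the smallest p in the interaction and genotype tests, and a few genes fixed by name for the genotype test. From this set those that carry the comparison are printed. Alternatives were quantile normalization, a shift to 1 median, no filter or one at the median, the mean over probe sets, array weights, a replicate block, eBayes with its trend and robust settings, no genotype covariate, Fabp6 as a continuous term, the B cell or smooth muscle list mean as a covariate, other thresholds, and leaving out each array. The T cell covariate was added after the data were seen. Promoter stretches are RefSeq's (GRCm38.p6).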

Additional observations from a re-analysis of the deposited data

Results flagged for a closer look

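A sample was marked where it lay far from the rest of its side of the split (the 4 arrays with Fabp6 signal or the 10 others) by Dixon's criterion, which chance meets in about 1 in 20 groups; 248 groups were examined and 10 were marked. On the Fabp6 side, K289R replicate 7 stood high for the interferon-induced gene Ifit1, at 10.46 with the nearest other array at 9.42, and for the antigen presentation list mean, at 10.71 with the nearest at 10.01. WT replicate 1 stood high there for Mep1a, at 12.65 with the nearest at 12.36. Among the 10 others, K289R replicate 3 was low for Slc51a, at 10.74 with the nearest at 11.07, and for the mean of sterol efflux genes, at 10.23 with the nearest at 10.39. K289R replicate 6 was low for Dao, at 8.89 with the nearest at 9.16. WT replicate 3 was low for Slc5a8, at 9.76 with the nearest at 10.83. WT replicate 7 was low for the antigen presentation list mean, at 9.84 with the nearest at 10.33. K289R replicate 5 was low for crypt and proliferation genes, at 9.30 with the nearest at 9.63, and WT replicate 2 was high for immediate early genes, at 10.28 with the nearest at 9.84.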

How the results depend on the processing

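All 57 genes past the threshold kept their direction in every alternative in which they were tested, which picking them from the main fit to these arrays favours. The medians of the distal and proximal lists kept their sign in all 27 alternatives, with the distal median lowest, 0.087, under the T cell covariate against 0.18. The number of genes did not hold. Against 57 it was 37 with quantile normalization, 146 with array weights, 138 with Fabp6 as a continuous term, 18 with the B cell and 30 with the smooth muscle list mean as a covariate, and 159 at an adjusted p of 0.1. It was 0 at an adjusted p of 0.01, 0 with the T cell list mean as a covariate (limma, 1004 with an unadjusted p under 0.05) and 0 with the replicate block (limma, 989 unadjusted). Without 1 array it ranged from 4 to 90. The replicate block is given only here, since the numbers do not pair the arrays and it spends 6 degrees of freedom. For the interaction, the block gave 2 genes (Hspa1b and Hsph1), and leaving out 1 array gave 0 to 1. The genotype count of 10 was 18 with the filter at the median, 38 with array weights, 0 with the block (limma, 1467 unadjusted), 21 at an adjusted p of 0.1 and 6 at 0.01, and 6 to 18 without 1 array. It was 7 with the smooth muscle covariate, sharing only 2 of the 10 genes, and 7 with the B cell and 8 with the T cell covariate, sharing 6 each. The median of the bile acid list was -0.080 with the filter at the median, where fewer dim members remain, and that of the T cell list 0.0076 with its own mean as the covariate. Gast, at -0.03, turned to 0.027 with array weights, 0.037 with the block and 0.0044 with the T cell covariate, and ran from -0.093 to 0.12 without 1 array. The cause of the other shifts was not tested. Dim genes near the limit, Slc10a2 among them on 10 arrays, may have differences compressed by background, and with 4 arrays on 1 side small differences could not be seen.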
